A study of Arabidopsis thaliana with 28 samples.

Results

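A small set of nuclear genes whose products build or protect the photosynthetic complexes of the chloroplast were followed in Arabidopsis thaliana grown with and without sucrose. They were LPA19 (AT1G05385), PSB27 (AT1G03600), the rubredoxin-like gene AT1G54500, ATAB2 (AT3G08010), CCB3 (AT5G36120) and the plastid fibrillin gene AT5G19940. The 6 were taken by name from the 690 genes that had a probe of their own, with earlier results of these data known. All 28 arrays were of total RNA from wild-type plants of the ecotype Columbia 0 grown on MS medium, the mineral medium commonly used for plants in culture. For 14 arrays (pSuc) the medium held 2% sucrose, and for the other 14 (H2O) it was untreated. The labels give no organ, age, light regime or number of plants, so no tissue marker could be set against a labelled tissue. Each array listed a linear signal for 3439 probes, and the scaling behind that signal is not given in the sources used here.

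Photosystem II, the cytochrome b6f complex and photosystem I carry electrons through the thylakoid membrane in that order. Their subunits come from both the nuclear and the plastid genome, and nuclear-encoded factors help to translate, process, fold, load with cofactors and join them. Photosystem II is damaged by light and is continually taken apart and rebuilt, so some of its assembly factors also serve repair. Sugars supplied in the medium are known to alter the expression of photosynthetic genes in seedlings.

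Of the 28 arrays, 26 correlated best with the array of the next or previous replicate number in their group. Such neighbours were averaged, arrays 1 and 2 to set 1 and so on, which left 7 sets per medium. No label says that sets came from separate cultures, so a p-value here measures spread among sets that may be technical repeats. Some sets, 3 in all, stood apart from their groups. Sucrose set 1 had a mean correlation of 0.938 with the no-sucrose sets and of 0.80 with the other sucrose sets, against 0.897 to 0.908 of the other sucrose sets with their own group. No-sucrose sets 1 and 2 had the lowest mean correlations with their own group, at 0.888 and 0.891. The median deposited signal of an array set moved with these patterns. It was 0.163 to 0.213 in sucrose sets 2 to 7, and lay at 0.182 and 0.213 in no-sucrose sets 1 and 2. It was 0.344 to 0.432 in no-sucrose sets 3 to 7 and 0.339 in sucrose set 1. Its part in the results was not tested beyond the scalings given with them. Results are given with all sets and, where it matters, without these 3, a choice made from the data themselves.

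On medium with sucrose 4 of the 6 genes were higher and none was lower. AT5G19940 was 3.57-fold higher, AT1G54500 2.83-fold, LPA19 2.29-fold and ATAB2 1.54-fold. CCB3 had a log2 fold change of -0.46 and PSB27 of -0.43, and neither passed the test. The genes were compared with limma on log2 quantile-normalized signals, with p-values adjusted by Benjamini-Hochberg over all 3439 probes and a threshold of 0.05. In that fit 605 probes (17.6%) were called higher and 428 (12.4%) lower on sucrose; among the 692 probes of 1 gene the shares were 16.8% and 15.6%. The median log2 fold change was 0.91 for the 6 genes and 0.00 for all probes. Since the genes were chosen with results known, their share of calls is a description. All 6 gave a signal above the floor of 0.0483 on every array, and all 6 passed a filter on dim probes. In material of mixed cells a lower signal from fewer cells of a type and from less RNA per cell cannot be told apart.

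**Figure D1:**
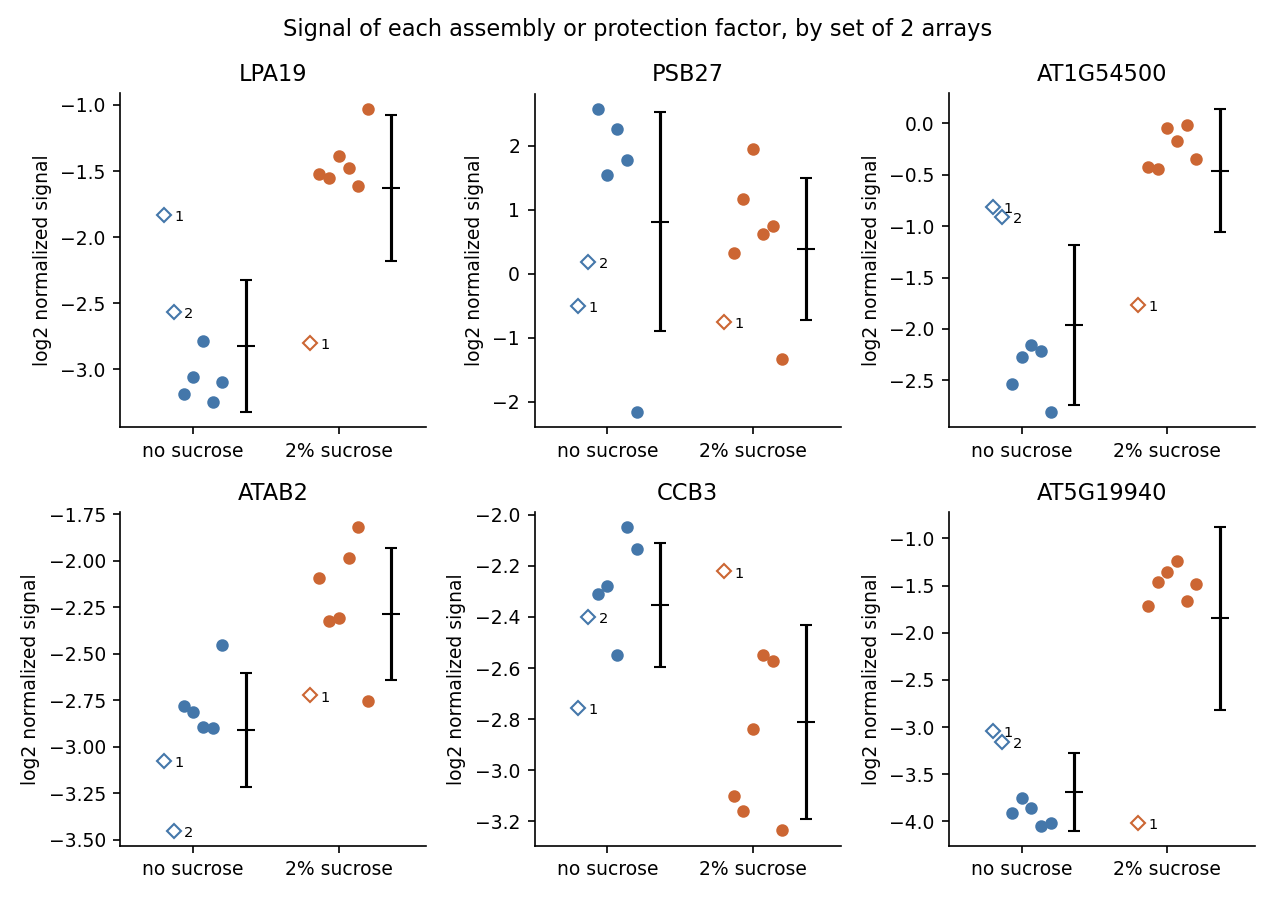
Log2 normalized signal of each gene in the 7 sets per medium; each point is the mean of 2 arrays, open diamonds are no-sucrose sets 1 and 2 and sucrose set 1 with their numbers, and the black bars give the mean ± SD over 7 sets. Sucrose sets 2 to 7 lie above all no-sucrose sets for LPA19, AT1G54500 and AT5G19940, while the sets of PSB27 overlap over most of their range.

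LPA19, PSB27 and AT1G54500 act on photosystem II, and of these LPA19 and AT1G54500 passed the test and PSB27 did not. LPA19 encodes a lumenal protein related to PSB27 that helps to process the C-terminus of the D1 reaction centre protein. Its log2 signal ran from -3.25 over a median of -3.06 to -1.83 in the no-sucrose sets, and from -2.80 over a median of -1.52 to -1.03 in the sucrose sets. Sucrose set 1 lay among the no-sucrose sets, and the other 6 sucrose sets lay above all of those, as did at least 6 for 10.8% of all probes. The log2 fold change was 1.20 ± 0.27 (SE, n = 7 sets each; limma adjusted p = 0.00894), and the 95% interval of the fold ran from 1.52 to 3.46. In deposited units the median array signal was 0.269 with sucrose and 0.186 without. With the values as deposited, a scaling under which 5.50% of all probes were called higher, the gene was 1.46-fold higher (limma adjusted p = 0.00866). Without the 3 sets that stood apart it was 3.12-fold higher (limma adjusted p = 3.88e-06), in a fit that called 26.7% of all probes higher and 21.5% lower.

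AT1G54500 encodes a rubredoxin-like protein, an iron-binding protein of the thylakoid, and a rubredoxin of this kind is needed for photosystem II to accumulate in green algae, cyanobacteria and Arabidopsis. On the log2 scale AT1G54500 ran from -2.81 over a median of -2.22 to -0.81 without sucrose, and from -1.77 over a median of -0.34 to -0.01 with it. Again 6 of the 7 sucrose sets lay above every no-sucrose set, and sucrose set 1 was the exception. No-sucrose sets 1 and 2, at -0.81 and -0.91, were the nearest to the sucrose sets; the other no-sucrose sets reached at most -2.15. Its log2 fold change was 1.50 ± 0.36 (SE, n = 7 sets each; limma adjusted p = 0.0112). Without the 3 sets that stood apart the gene was 4.47-fold higher (limma adjusted p = 1.95e-06). Arrays of a set agreed closely for this gene: the SD was 0.13 within sets and 0.70 between sets of a group (log2).

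PSB27 encodes a lumenal protein that binds photosystem II while it is assembled or repaired. No difference between the media was detectable for it, and sets of the same medium differed widely. Its log2 signal ran from -2.16 over a median of 1.55 to 2.58 in the no-sucrose sets, and from -1.33 over a median of 0.62 to 1.95 in the sucrose sets. The sets of the media overlapped over most of this range. The log2 fold change was -0.43 ± 0.75 (SE, n = 7 sets each; limma adjusted p = 0.716). Its 95% interval of -2.06 to 1.21 allows both a marked fall and a rise of up to 2.31-fold.

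The spread of PSB27 lay between sets and not between the arrays of a set. On single arrays its deposited signal ran from 0.35 to 6.15 without sucrose, a 17.6-fold range, and from 0.253 to 3.29 with sucrose. The largest ratio between the arrays of a set was 1.45 without sucrose and 2.06 with it. The SD between sets of a group was 1.45 on the log2 scale, larger than that of 99.2% of all probes, and the SD within sets was 0.23. Set 7 was the lowest in both media, with signals of 0.369 and 0.35 on its no-sucrose arrays and 0.255 and 0.253 on its sucrose arrays. The highest without sucrose were the arrays of set 3, at 6.15 and 5.92.

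**Figure D2:**
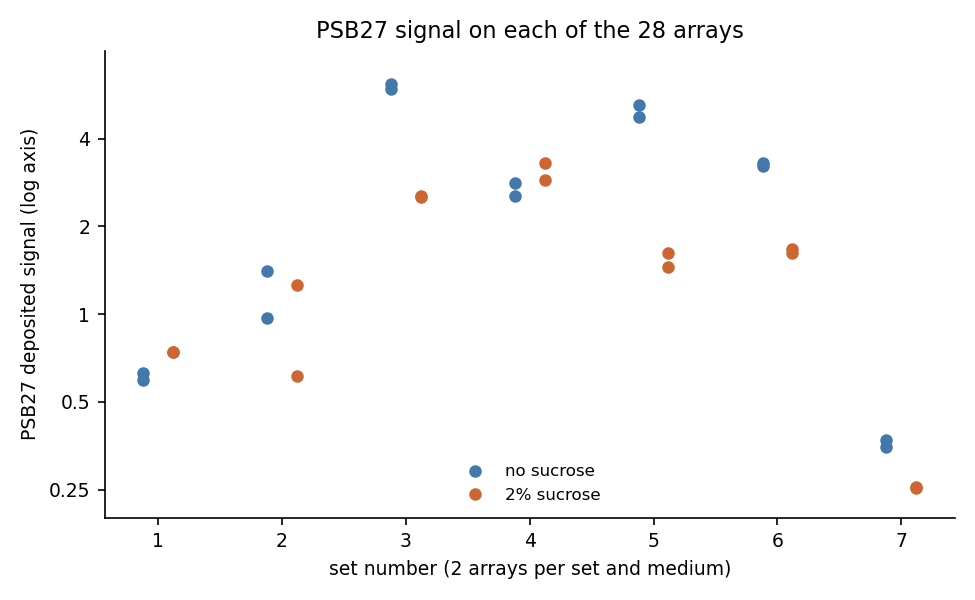
Deposited signal of PSB27 on each of the 28 arrays (log axis) by set number, with 2 arrays per set and medium; numbers are labels of replicates and carry no order. The arrays of a set lie close together and sets of a medium lie far apart, from 0.35 to 6.15 without sucrose, with set 7 lowest in both media.

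LPA19 and PSB27 are related proteins, so their changes were set against each other within each set. The log2 fold change of LPA19 exceeded that of PSB27 by 1.62 ± 0.85 (SE, n = 7 sets each). An exact two-sided permutation test over the 3432 ways to divide the 14 sets into 7 and 7 gave p = 0.0798 for this 1 comparison. The related genes were thus not shown to differ in their response.

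ATAB2, an RNA-binding protein, is needed for light-controlled translation of plastid messages for reaction centre proteins of photosystems I and II. On the log2 scale ATAB2 ran from -3.45 over a median of -2.90 to -2.45 without sucrose, and from -2.75 over a median of -2.31 to -1.82 with it. Sucrose sets 1 and 7 lay among the no-sucrose sets and the other 5 above every one of them; each of the 7 was above the no-sucrose mean. The log2 fold change was 0.62 ± 0.17 (SE, n = 7 sets each; limma adjusted p = 0.0194). This call depended on the scaling. It held with each array centred on its median, at a log2 fold change of 0.63 (limma adjusted p = 0.0376). With the values as deposited the log2 fold change was 0.01 (95% interval -0.72 to 0.73; limma adjusted p = 1.0), and the median array signal was 0.186 with sucrose and 0.20 without. The mean deposited signal was 0.0764 and 0.0752 in no-sucrose sets 1 and 2, and 0.181 to 0.303 in no-sucrose sets 3 to 7. In the sucrose sets it was 0.095 to 0.208. With each array centred on blocks of 48 consecutive spot numbers the log2 fold change was 0.53 (limma adjusted p = 0.0807).

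The cytochrome b6f complex was represented by CCB3, which is named for cofactor assembly on cytochrome b6, the step that attaches a haem to this subunit. Its log2 signal ran from -2.76 over a median of -2.31 to -2.05 without sucrose, and from -3.24 over a median of -2.84 to -2.22 with it. In the sucrose group 6 of the 7 sets lay below the no-sucrose mean and 4 lay below every no-sucrose set, while sucrose set 1 was the highest of its group. The log2 fold change was -0.46 ± 0.17 (SE, n = 7 sets each; limma adjusted p = 0.0531), with a 95% interval from -0.82 to -0.10. The gene was called lower without sucrose set 1 (log2 -0.56, limma adjusted p = 0.00987), with no-sucrose set 1 left out (limma adjusted p = 0.0305, log2 -0.52) or without the 3 sets that stood apart (log2 -0.65, limma adjusted p = 0.00552). It was also called lower with the values as deposited, at 2.14-fold (limma adjusted p = 0.041), a scaling under which 21.5% of all probes were called lower. Of the 26 alternatives run, only 6 called CCB3, among them 2 of the 14 fits that left out 1 set (limma adjusted p up to 0.103 in these 14). It was not called after median centring (limma adjusted p = 0.0762) or with the set as a random block (limma adjusted p = 0.134). Over all alternatives its limma adjusted p lay between 0.00153 and 0.146, and its log2 fold change was negative in all 26.

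AT5G19940 encodes a fibrillin, one of a family of lipid-binding proteins of plastoglobules and thylakoids that is linked to protection of the photosynthetic membrane under stress. On the log2 scale AT5G19940 ran from -4.04 over a median of -3.85 to -3.04 without sucrose, and from -4.01 over a median of -1.49 to -1.24 with it. Sucrose sets 2 to 7 lay between -1.72 and -1.24, well above every no-sucrose set, whereas sucrose set 1, at -4.01, was as low as those. Its log2 fold change was 1.83 ± 0.39 (SE, n = 7 sets each; limma adjusted p = 0.00718). In deposited units the arrays ran from 0.0688 to 0.149 without sucrose, close to the floor, so the fold depends on how low signals are treated. It was 2.27-fold when 0.1 was added to each signal and no floor was set (limma adjusted p = 0.00627). With the floor raised to the 10th percentile it was 3.08-fold (limma adjusted p = 0.00586). The scaling mattered as well. With the values as deposited, where the floor was kept but quantile normalization left out, the gene was 2.34-fold higher (limma adjusted p = 0.0156). Without the 3 sets that stood apart it was 5.39-fold (limma adjusted p = 1.49e-07).

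The overall scale of the arrays differed between the media, and the genes were therefore also read against the median of all probes. That median moved to -0.31 on the log2 scale with the values as deposited and to 0.31 with arrays centred by their medians, where 31.3% of all probes were called higher and 12.6% lower. Relative to it a gene has the same value under both, since centring moves all probes of an array by the same amount. That value was 1.54 for AT5G19940, 1.26 for AT1G54500, 0.86 for LPA19 and 0.32 for ATAB2. It was -0.78 for CCB3 and -0.31 for PSB27. The direction of each of the 6 genes was the same under the 3 scalings, although the log2 fold change was only 0.01 for ATAB2 as deposited and -0.00 for PSB27 after median centring.

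**Figure D3:**
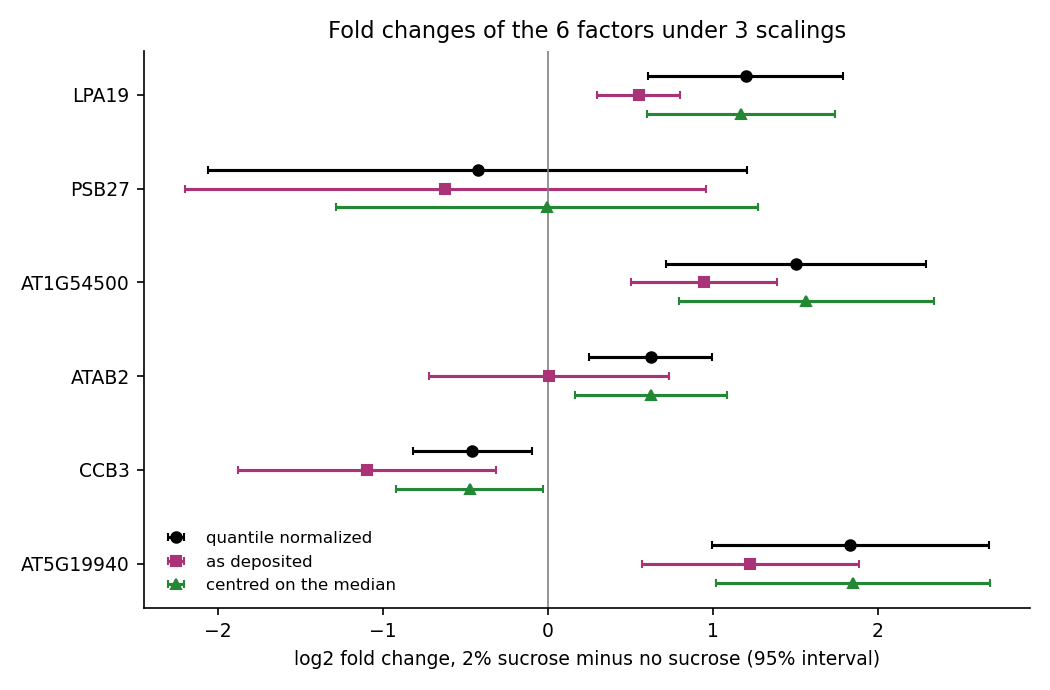
Log2 fold change of each gene (sucrose minus no sucrose) with its 95% interval under quantile normalization, for the deposited values and after centring arrays by their medians (7 sets per medium). The intervals of LPA19, AT1G54500 and AT5G19940 lie above 0 under all 3 scalings, those of PSB27 span 0 under all 3, and that of ATAB2 spans 0 with the values as deposited.

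LPA19, AT1G54500 and AT5G19940 shared a pattern of deviations over the sets, and for each gene sucrose set 1 and no-sucrose set 1 deviated most. The deviations of the 14 sets from their group means correlated at 0.88 between LPA19 and AT5G19940, at 0.86 between LPA19 and AT1G54500 and at 0.83 between AT1G54500 and AT5G19940. Without sucrose set 1 these values were 0.81, 0.77 and 0.89. They are descriptions, because the genes share arrays and the same 3 sets stand apart in each. No-sucrose sets 1 and 2 stayed in all these values and lay above their group mean for all 3 genes. The deviations were 0.99 and 0.26 for LPA19, 1.15 and 1.05 for AT1G54500 and 0.64 and 0.53 for AT5G19940. Correlations without all 3 sets were not computed, so a shared pattern beyond those sets is not shown. CCB3 ran opposite to LPA19 over the 14 sets, at -0.80, and at -0.68 without sucrose set 1. Its correlations with AT1G54500 and AT5G19940 were -0.55 and -0.66, and without that set -0.31 and -0.38. ATAB2, although higher on sucrose, did not share the pattern. Its correlations with LPA19, AT1G54500 and AT5G19940 lay between -0.16 and 0.16, and without sucrose set 1 they were -0.59, -0.54 and -0.57. With CCB3 it correlated at 0.23, and at 0.63 without that set. PSB27 had correlations between -0.12 and 0.17 with the other 5 genes; without sucrose set 1 its correlation with LPA19 was -0.41.

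**Figure D4:**
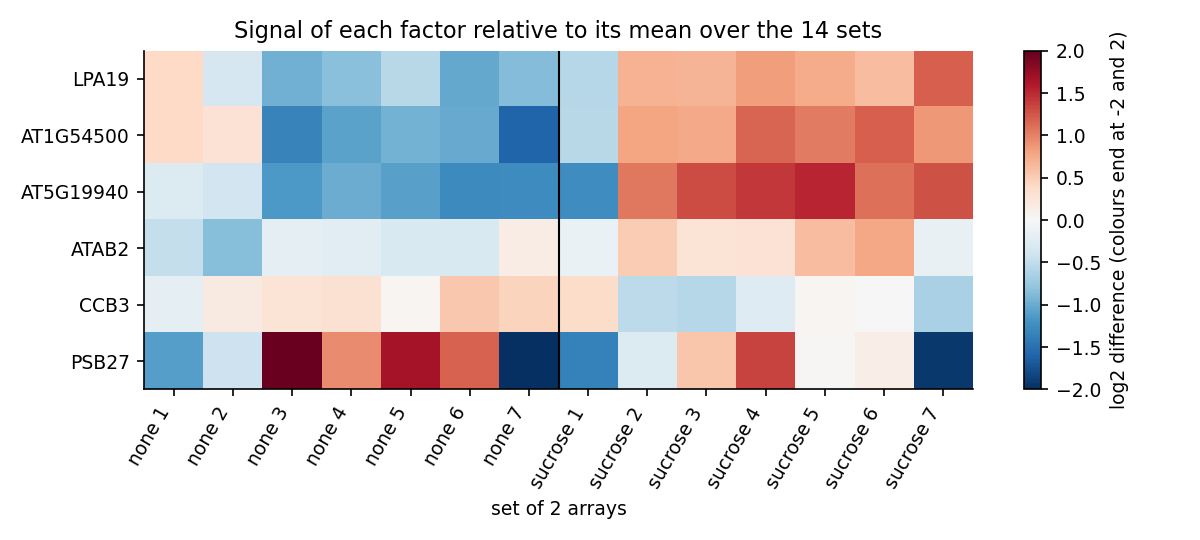
Log2 signal of each gene in each of the 14 sets minus its mean over all sets, with red above and blue below that mean. Colours end at -2 and 2, which cuts off the lowest value of PSB27, in no-sucrose set 7. LPA19, AT1G54500 and AT5G19940 are low in no-sucrose sets 3 to 7 and in sucrose set 1 and high in sucrose sets 2 to 7.

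The genes most like each of the 6 were sought by the correlation of the same set deviations over 14 sets. The candidates were 334 probes of 1 gene with a signal above the median of all probes, without the gene itself where it was among them. The closest to LPA19 were AT1G28150 (r = 0.93) and AT1G15410 (r = 0.92). For AT1G54500 they were AT3G06870 (r = 0.97) and AT5G53920 (r = 0.96), and for AT5G19940 they were AT2G38550 (r = 0.97) and again AT1G15410 (r = 0.95). Their log2 fold changes on sucrose are given as a description, because the sets that stood apart weigh on both the correlation and the fold: they were 1.04 ± 0.27 for AT1G28150, 1.34 ± 0.35 for AT1G15410, 1.90 ± 0.43 for AT3G06870, 1.16 ± 0.34 for AT5G53920 and 1.13 ± 0.21 for AT2G38550 (SE, n = 7 sets each). ATAB2 was closest to AT1G32190 (r = 0.80) and LAS (r = 0.77). CCB3 was closest to AT1G63610 and AT3G44570 (r = 0.77 for both after rounding). The closest to PSB27 were AT5G06010 (r = 0.78) and AT5G34870 (r = 0.73). Without sucrose set 1 the 12 correlations lay between 0.67 and 0.95.

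Few other genes of these pathways had a probe of their own. Lists drawn from general knowledge held 90 further genes for assembly of photosystems I and II, the b6f complex and the ATP synthase, for fibrillins and rubredoxin-like proteins and for photoprotection. Of these, 9 were measured by a probe of 1 gene and 12 only by probes shared between genes. Among the 9, 1 was called higher and none lower, against 17.6% and 12.4% of all probes, and AT1G49380 and AT3G29185 were at or below the floor on all arrays. The median log2 fold change of the other 7 was -0.46. None of the 30 listed genes for photosystem II assembly and repair had a probe of its own, so LPA19, PSB27 and AT1G54500 could not be set against other factors of that complex.

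Of 4 further loci listed with the fibrillins, AT2G35490 was called higher, by 0.99 ± 0.35 on the log2 scale (SE, n = 7 sets each; limma adjusted p = 0.0473). Its log2 signal ran from -3.33 over a median of -2.67 to -1.33 without sucrose and from -2.68 over a median of -1.19 to -0.90 with it. The SD within its sets, 0.64, was nearly that between sets, 0.66. It was not called in 11 of the 14 fits that left out 1 set (limma adjusted p from 0.0549 to 0.0928), the exceptions being those that left out sucrose set 1, no-sucrose set 1 and no-sucrose set 5. With the values as deposited its log2 fold change was 0.45 (limma adjusted p = 0.21). The log2 fold changes of AT5G09820, AT2G46910 and AT1G51110 were 0.30 ± 0.19, 0.52 ± 0.55 and -0.46 ± 0.30 (SE, n = 7 sets each), and none passed. AT5G09820 turned to -0.37 with the values as deposited, and AT2G46910 was at the floor in 2 sucrose sets. AT5G19940 thus stood beside fibrillin loci of which 1 was called, and only by a small margin.

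AT1G22700, listed with photosystem I assembly, had a log2 fold change of -1.56 ± 0.61 (SE, n = 7 sets each; limma adjusted p = 0.0688). Of the 14 fits that left out 1 set, 2 called it lower. They left out no-sucrose set 1 (limma adjusted p = 0.0153, log2 -1.95) and sucrose set 1 (log2 -1.87, limma adjusted p = 0.0199). In the others its limma adjusted p went up to 0.133. It was also called lower without the 3 sets that stood apart (log2 -2.52, limma adjusted p = 0.000327). CHL, the chloroplastic lipocalin, had a log2 fold change of -0.87 ± 0.39 and AT4G31530, listed with photoprotection, of -1.02 ± 0.37 (SE, n = 7 sets each); neither passed, with limma adjusted p of 0.111 and 0.0543. The signal of CHL did not rise above the floor in 4 sucrose sets. CHL was called lower in 1 of the 14 fits that left out 1 set, the fit without sucrose set 2 (limma adjusted p = 0.0443). AT4G31530 was called lower in 3 of those 14 fits, without no-sucrose set 1, no-sucrose set 2 or sucrose set 1 (limma adjusted p = 0.0449, 0.00918 and 0.0231). Without the 3 sets that stood apart it was 3.09-fold lower. After median centring its log2 fold change was only -0.30 (limma adjusted p = 0.338).

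Subunits of the complexes served by these factors moved in both directions. Of 32 listed nuclear subunits 3 had a probe of their own: PSAN of photosystem I was higher by 0.67 ± 0.17 and PSBW of photosystem II lower, at -1.52 ± 0.33, on the log2 scale, while PSBY of photosystem II, at 0.38 ± 0.25, did not pass (SE, n = 7 sets each). PSAN was not called when arrays were centred by blocks of spot numbers (log2 0.49, limma adjusted p = 0.0863). PSBW was 2.87-fold lower in the quantile-normalized values and 1.78-fold lower after median centring (limma adjusted p = 0.0442). For photosystem II, the factors LPA19 and AT1G54500 were thus higher on the sucrose medium on which the subunit PSBW was lower.

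**Figure D5:**
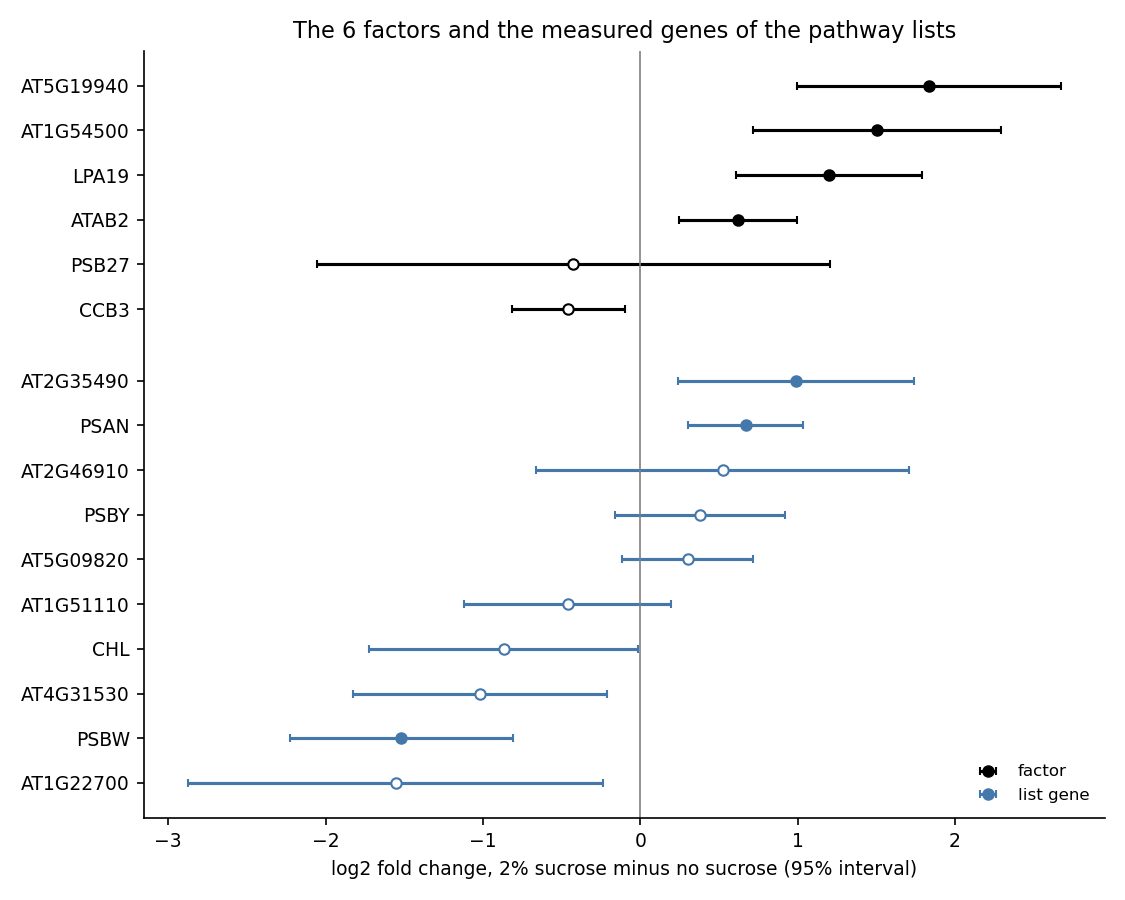
Log2 fold change (sucrose minus no sucrose) with its 95% interval for the 6 genes (black) and for the 10 list genes with signal above the floor (blue), 7 sets per medium; filled points passed an adjusted p of 0.05. The list genes scatter on both sides of 0, from -1.56 for AT1G22700 to 0.99 for AT2G35490.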

How the data were processed

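Total RNA was measured on 28 arrays. The deposited table holds a linear intensity per probe and array, never below 0; its scanner, background correction and scaling were not stated in the labels or headers. A floor of 0.0483 (5th percentile of the positive signals) was set, and signals were log2 transformed and quantile normalized, and consecutive arrays of a group were averaged. limma 3.58.1 in R 4.3.3 (lmFit, eBayes, two-sided) compared 7 sets per medium, with Benjamini-Hochberg adjustment over 3439 probes. Genes were named from the platform annotation, updated through RefSeq TAIR10.1: 692 probes had 1 gene, 870 several, and 1877 were unlisted. The members, lists, sets and alternatives were chosen with earlier results of these data known. The text names the 6 genes, every list gene with a probe of its own (up to 12 by adjusted p) and, per gene, the 2 genes of highest correlation. A planned search of promoters for motifs was not run, since no sequence was used here. The number of arrays limits the precision. The deviations of same-numbered sets correlated at over 0.1 in 1 of 7 pairs. The sets that stood apart enter this check, so it does not settle whether the numbers pair the sets. The main fit took the sets as unpaired. The calls among the 6 genes depend on that choice. With the set number as a block limma called 0 of them.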

Additional observations from a re-analysis of the deposited data

Results flagged for a closer look

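By Dixon's test, 4 of 32 groups of values held a set that was distant from the rest, where chance gives about 1 in 20 for independent values of normal spread. It was sucrose set 1 in all 4, which is 1 observation seen in several genes. Its log2 signal was the lowest of the sucrose sets for LPA19, at -2.80 against -1.61 to -1.03 in the others (gap over range 0.669). It was the lowest for AT1G54500, at -1.77 against -0.45 to -0.01 (0.752), and for AT5G19940, at -4.01 against -1.72 to -1.24 (0.828). For PSBW, which was lower on sucrose, it was the highest, at 5.60 against 2.97 to 3.92 (0.642). Without this set the sucrose group was higher by 2.63-fold for LPA19, 3.29-fold for AT1G54500 and 4.58-fold for AT5G19940. Neither a batch nor a scan is labelled, and what set this sample apart was not tested.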

How the results depend on the processing

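Over 26 alternatives, 14 of which left out 1 set, the log2 fold change of each of the 6 genes kept its sign. That sign says little for ATAB2 as deposited, at 0.0066, and for PSB27 after median centring, at -0.0033. LPA19, AT1G54500 and AT5G19940 were called in 25 alternatives each, and ATAB2 in 23. The exception shared by all 4 was the set number as a block: then limma called 0 of the 6 (4 at an unadjusted p under 0.05), with log2 fold changes of 1.20, 1.50, 1.83 and 0.62 and adjusted p of 0.0691, 0.0692, 0.0505 and 0.0749, and 416 probes in all. No label says whether the numbers pair the sets. Only 1 of 14 sets correlated best with its own number, but the 3 sets that stood apart enter this check, so it does not settle pairing. Calls over all probes rose to 1710 with 28 arrays as separate samples, 1842 with array weights and 1657 without the 3 sets that stood apart, and were 764 to 1431 with 1 set left out. In those 3 fits CCB3 was called, at -0.46, -0.67 and -0.65, and as deposited at -1.10; with 1 set left out it lay between -0.56 and -0.39. ATAB2 lost its call as deposited (0.0066) and with blocks of spot numbers centred (0.53). AT5G09820 turned negative as deposited (-0.37). As deposited 189 probes were called higher and 739 lower, and after median centring 1076 and 433, against 605 and 428. The background level of the arrays is unknown, which limits what low signals such as those of AT5G19940 show.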

Other observations

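PSB27 was compared between same-numbered sets of the media after its values had been seen. Over 7 pairs of sets the log2 signals with and without sucrose correlated at Pearson's r = 0.858 (exact two-sided permutation p = 0.0121) and Spearman's rho = 0.75 (exact permutation p = 0.0663). Adjusted over the 6 genes examined in this way, the values were 0.0726 and 0.398, so the relation did not pass. Without the 2 pairs farthest from the median of the no-sucrose signals r was 0.338 over 5 pairs. Leaving out the farthest signals narrows the range and can by itself lower r. The value thus does not settle whether the relation rests on those pairs. Of the 3024 probes with a value, 99.0% had a lower r over the 7 pairs. The other 5 genes had negative correlations, from -0.84 for LPA19 to -0.38 for ATAB2. Without the 2 farthest pairs of each gene r turned positive for LPA19 (0.135), AT1G54500 (0.744), ATAB2 (0.441) and AT5G19940 (0.791). For CCB3 it stayed negative, at -0.762. The pairs left out were chosen by the no-sucrose signals of each gene and differed between genes. These values therefore do not show whether PSB27 differs from the other genes.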
